A study of Mus musculus with 6 samples.

Results

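The genes described here are 8 mouse genes for proteins that bind mRNA and set its stability or translation: Zfp36, Zfp36l1, Tia1, Tial1, Pabpc1, Pcbp1, Pcbp2 and Ybx1. They were taken by name, as every probe set annotated to them, which gave 8 probe sets, 1 for each gene, out of 12422 probe sets that are not controls and 8251 named genes. Each of 6 oligonucleotide arrays held total RNA of 1 mouse hippocampus sample, from a study of HuD overexpressor mice. HuD is a neuronal RNA-binding protein, the product of Elavl4. The labels give no genotype, age or sex for any sample, and the sources used here do not state the promoter that drives the transgene, the number of animals behind a sample or any control line. The samples are therefore named by the numbers 1 to 6 in their titles (values for samples 1 to 6 are in that order), none is called an overexpressor or a control, and every difference below is between single samples with no replicate check. The titles hold a pair of codes of unstated meaning, of which 1 is common to all samples and the other sets sample 2 apart (code 2, with code 1 elsewhere).

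An AU-rich element is a stretch of A and U bases in the 3' untranslated region of a short-lived mRNA, such as those of cytokines and immediate early genes. Zfp36 (tristetraprolin) and its relative Zfp36l1 bind such elements and recruit the deadenylase that starts decay of the mRNA, whereas HuD and the other Elavl proteins bind similar elements and in general stabilise the mRNA. Tia1 and Tial1 bind U-rich stretches, silence translation and gather in stress granules, Pabpc1 coats the poly(A) tail, Pcbp1 and Pcbp2 bind C-rich stretches, and Ybx1 is a cold shock domain protein that packages mRNA in the cytoplasm.

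The values are signal intensities on a linear scale, and those of different probe sets are not set against each other. The array medians of this signal were 62.8, 61.4, 59.8, 63.3, 63.1 and 62.8 in samples 1 to 6. For comparison between samples each value was divided by the median of its array and put on the log2 scale, and the range of a probe set is the highest minus the lowest sample on that scale. Expressed probe sets are those whose median sample exceeded the array median, since values below that were not shown to exceed background. All 5 measured markers of neurons (such as Snap25) and 4 of the 5 measured markers of hippocampal neurons (such as Camk2a) were expressed. Sample 3 stood apart on the array controls, with a ratio of 3' to 5' signal of 3.56 for pyruvate carboxylase, against 1.57 to 2.61 in the other samples, and of 3.47 for transferrin receptor, against 2.54 to 3.02. For beta-actin (1.11 to 1.27) and Gapdh (0.79 to 0.86) the highest ratio was that of sample 1. Ranges of the 8 genes in which sample 3 was the highest or lowest are given with and without it. The summed signal of the 4 measured choroid plexus markers spanned 99.3 to 2119 over the samples, so the samples differed in that signal too. In whole tissue, fewer cells of a type and less RNA per cell cannot be told apart.

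The mRNAs of 7 of the 8 genes were expressed in all 6 samples, with a median range near that of all expressed probe sets. None of these 7 reached a 1.5-fold difference between its highest and lowest sample, a size that 25.1% of all 6207 expressed probe sets reached. Their median range was 0.36 on the log2 scale (1.28-fold), against 0.41 (1.33-fold) over the expressed probe sets, and 4 of the 7 lay under that background median. Zfp36 differed most, with a 3.03-fold range, but its signal was at or under the array median in 5 of 6 samples. Counted with it, 1 of 8 probe sets reached 1.5-fold, against 37.1% of all probe sets that are not controls. Brighter probe sets vary less, so the 4 brightest of the genes (Pabpc1, Pcbp1, Pcbp2 and Ybx1) were also read against the expressed probe sets at least 2 log2 units above the array median. None of these 4 reached 1.5-fold, against 11.5% of that background, and their median range was 0.37, against 0.33.

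**Figure D1:**
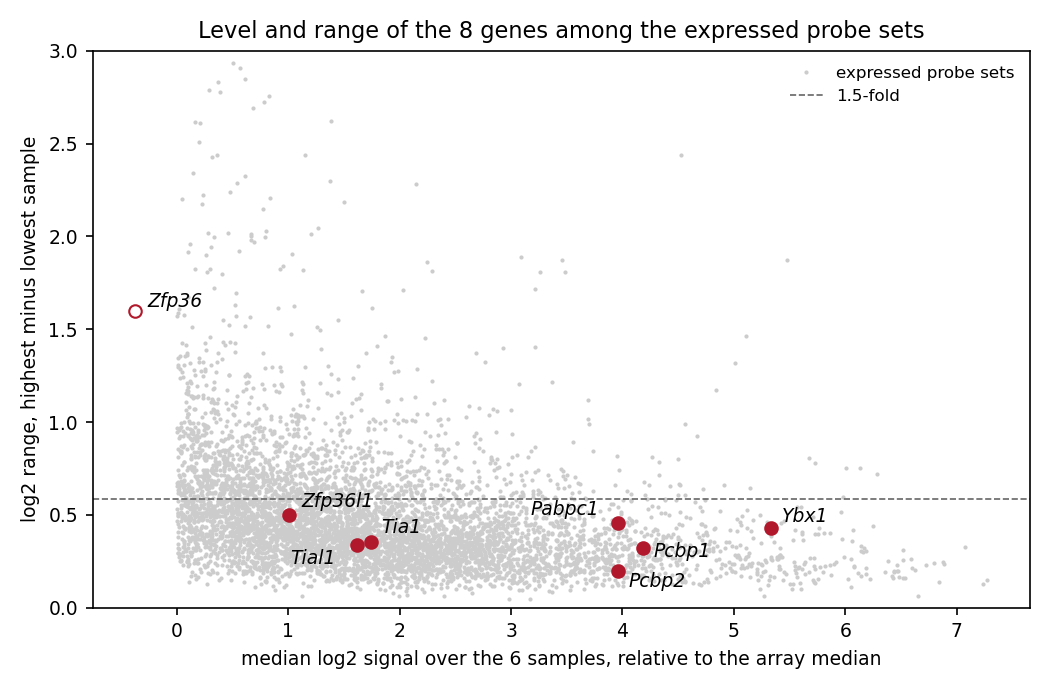
Each grey point is an expressed probe set, with its median log2 signal relative to the array median on the x axis and its log2 range over the 6 samples on the y axis. Red points are the 8 genes, and Zfp36, which was not expressed, is open. The 7 filled points lie under the dashed 1.5-fold line, and 5 expressed probe sets with a range above 3 are outside the axis.

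Among the proteins that promote decay, Zfp36 had a signal of 77.8, 43.5, 24.5, 53.3, 58.0 and 42.7 in samples 1 to 6. Sample 1 was the highest and the only one above its array median, at 1.24 times it, and sample 3 was the lowest, at 0.41 times it. The range was 1.60 on the log2 scale, of which 0.87 remained without sample 3 and 1.17 without sample 1. With every value under the array median counted at that median, the range was 0.31. The name of this probe set carries the suffix that marks probes shared with other transcripts, so part of its signal may not come from Zfp36.

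Zfp36l1, which acts on the same kind of element, had a signal of 110.4, 125, 86.9, 127, 129 and 126 in samples 1 to 6. Samples 2, 4, 5 and 6 were nearly level, sample 1 was lower and sample 3 the lowest. The range was 0.50 (1.41-fold), the widest of the 7 expressed genes, and 64.4% of expressed probe sets had a smaller one. Without sample 3 it was 0.22. Zfp36 and Zfp36l1 lay on the same side of their own medians in 4 of 6 samples (3, 4, 5 and 6), and both were lowest in sample 3. Zfp36l1 was only 0.002 above its median in sample 4 and 0.002 below it in sample 6. A median splits its own 6 values evenly, and values close to it fall on either side. Counts of samples on the same side, here and below, are therefore descriptions and no measure of agreement. In sample 1 they parted, with Zfp36 0.68 above its median and Zfp36l1 0.19 below.

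The relative Zfp36l2, named after its values were seen, was measured by 2 expressed probe sets that did not share their extremes. The brighter, with probes marked as shared, ranged 1.37-fold, highest in sample 2 and lowest in sample 5, close to sample 3, which was the lowest in the deposited signals. The other ranged 1.69-fold, highest in sample 6 and lowest in sample 1.

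The promoters of both genes are shown because Zfp36 is itself known as an immediate early gene, and genes of that class are set beside it below. The sequences are the 250 bases before the RefSeq start site, 5' to 3' on the strand of the gene, in GRCm38.p6. Zfp36 is on the minus strand at chr7:28379229-28379478, and capitals mark an EGR site (105 to 97 bases before the start), the binding sequence of Egr transcription factors, and a CArG box (58 to 49 bases before it), that of serum response factor. Zfp36l1 is on the minus strand at chr12:80113014-80113263, and capitals mark TATAAA (29 to 24 bases before the start) running into a CCAAT on the opposite strand (24 to 20 bases), the 2 overlapping by a base.
Zfp36: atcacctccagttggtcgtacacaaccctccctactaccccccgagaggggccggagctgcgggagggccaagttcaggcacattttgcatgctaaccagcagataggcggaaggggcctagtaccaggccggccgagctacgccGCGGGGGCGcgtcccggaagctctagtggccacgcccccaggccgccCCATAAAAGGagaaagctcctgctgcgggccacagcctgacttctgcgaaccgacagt
Zfp36l1: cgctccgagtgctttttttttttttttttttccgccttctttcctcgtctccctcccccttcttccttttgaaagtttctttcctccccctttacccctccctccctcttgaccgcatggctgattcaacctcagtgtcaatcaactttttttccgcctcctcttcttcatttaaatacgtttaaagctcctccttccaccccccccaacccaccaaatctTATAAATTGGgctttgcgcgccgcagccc
Searched on both strands were the CArG box by its usual consensus, the EGR site as GCGTGGGCG or GCGGGGGCG, CCAAT and TATAAA. Of 32851 promoters of this length, 1.47% held a CArG box, 3.06% an EGR site, 33.8% CCAAT and 12.4% TATAAA. Among the 7 of the 8 genes with a promoter entry, only Zfp36 held a CArG box or an EGR site. A match describes the letters and is not a measured site.

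**Figure D2:**
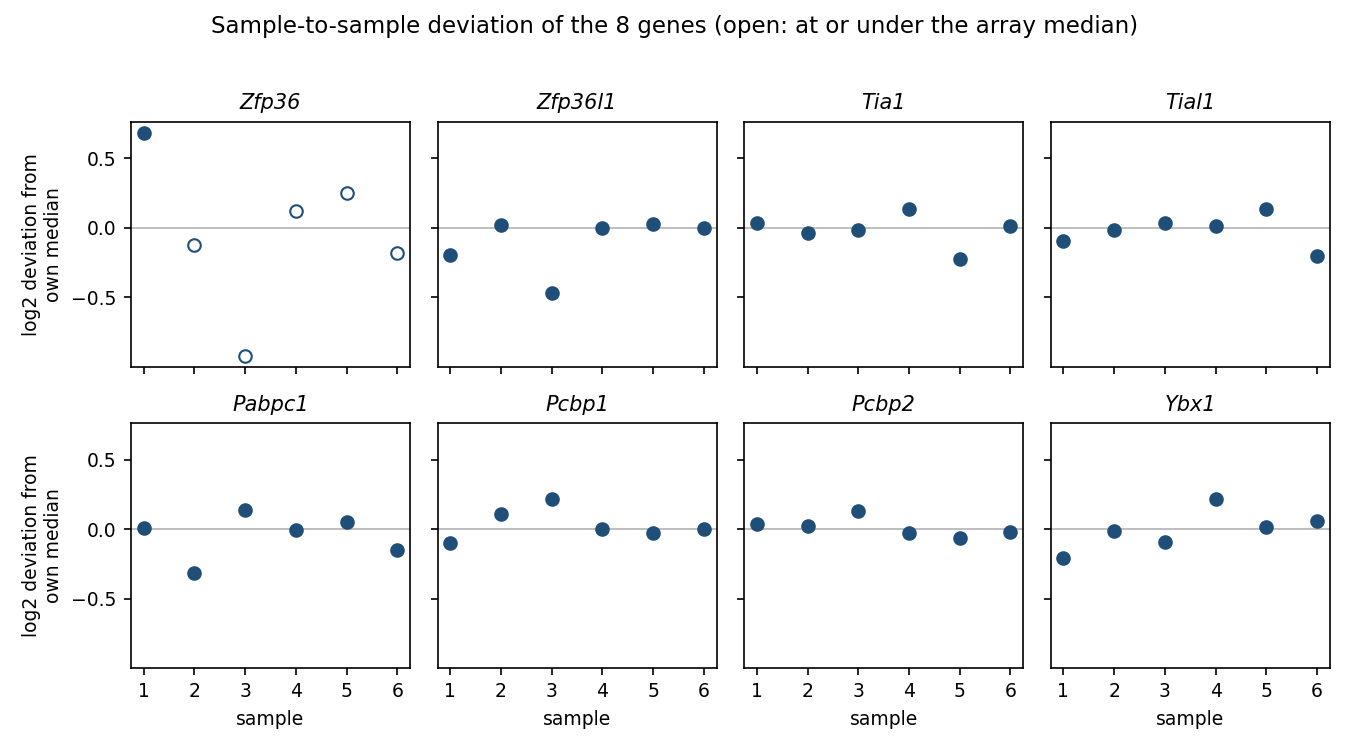
Each panel is a gene, with the sample number on the x axis and the log2 deviation from the median of its own 6 values on the y axis. Filled points lie above the array median and open points at or under it. Zfp36 spans 0.68 to -0.92 and the deepest value of Zfp36l1 is sample 3, while the points of the other 6 genes lie between -0.31 and 0.22.

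The translational silencers differed less. Tia1 had a signal of 216, 200.4, 199, 233, 181 and 212 in samples 1 to 6. Sample 4 was the highest and sample 5 the lowest, a range of 0.36 (1.28-fold) that was 0.17 without sample 5. Tial1, its paralog, had a signal of 180.3, 186, 188, 196, 212 and 168 in samples 1 to 6. Here sample 5 was the highest and sample 6 the lowest, a range of 0.34 (1.26-fold).

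The single probe sets of Tia1 and Tial1 differed most in sample 5. They lay on the same side of their medians in 2 of 6 samples (2 and 4), and sample 5 held the lowest Tia1 and the highest Tial1. The deviation of Tia1 minus that of Tial1 was -0.36 in sample 5, 0.21 in sample 6 and between -0.05 and 0.13 in the other samples. For other genes with a range of 0.3 to 0.5, 2 probe sets of the same gene differed by a median of 0.14, as described below. That value is a median over genes of the median over samples in each gene, and not a largest difference. Outside samples 5 and 6 the differences between Tia1 and Tial1 were smaller in size than it. The 2 genes are thus not shown to differ more than 2 probe sets of the same gene do. No motif of the 4 was found in the 250 bases before the start sites of either gene.

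Pabpc1, the cytoplasmic poly(A)-binding protein that links the tail to translation initiation, had a signal of 982, 768, 1029, 983, 1017 and 881 in samples 1 to 6. Sample 2 was clearly the lowest, sample 6 the next, and the other 4 samples lay close together. The range was 0.46 (1.37-fold), and 0.29 without sample 2 or 0.36 without sample 3. Sample 3 was the highest after scaling on the median and in the deposited signals, but sample 5 was after quantile normalization.

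Pcbp1 had a signal of 1064, 1204, 1268, 1149, 1126 and 1144 in samples 1 to 6. Sample 3 was the highest and sample 1 the lowest, a range of 0.32 (1.25-fold) that was 0.21 without sample 3. Pcbp2 had a signal of 999.5, 967, 1021, 966, 937 and 963 in samples 1 to 6. It was the steadiest of the 8 genes, with a range of 0.20 (1.15-fold), and 8.17% of expressed probe sets had a smaller one. Without sample 3 its range was 0.10. Sample 3 was again the highest and sample 5 the lowest, while quantile normalization gave a range of 0.08 with sample 1 the highest.

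Pcbp1 and Pcbp2 lay on the same side of their medians in 4 of 6 samples (2 to 5), and the largest gap between their deviations was in sample 1, where Pcbp1 minus Pcbp2 was -0.14. Pcbp1 is an intronless gene known as a retrocopy of a Pcbp2 transcript, and the sequences before their starts are shown because they have a stretch in common. It was found as the most similar window of 30 bases, a length set for the search, with 27 (90%) identical, printed in capitals, and the next 6 bases of the promoters are identical too. The Pcbp1 stretch is at chr6:86526201-86526230 on the minus strand (41 to 12 bases before the start) and that of Pcbp2 at chr15:102470482-102470511 on the plus strand (57 to 28 bases before the first of its start sites), both in GRCm38.p6 from RefSeq.
Pcbp1: CTTCCGGGGTCagAGGGTaCGCGGGGTTGA
Pcbp2: CTTCCGGGGTCgaAGGGTgCGCGGGGTTGA
None of the 4 motifs was found in the full 250 bases of either gene.

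Ybx1 had a signal of 2196, 2456, 2272, 2982, 2577 and 2644 in samples 1 to 6. Sample 4 was the highest and sample 1 the lowest, a range of 0.43 (1.35-fold). It was 0.27 without sample 4 and 0.31 without sample 1. Ybx1 is named for the Y-box, a sequence that holds an inverted CCAAT. The Ybx1 promoter is shown for its own CCAAT runs, which all read in the direct and not the inverted orientation. On the minus strand at chr4:119294514-119294763 (GRCm38.p6, RefSeq), 3 CCAAT runs, in capitals, lie 135 to 131, 103 to 99 and 52 to 48 bases before the start.
Ybx1: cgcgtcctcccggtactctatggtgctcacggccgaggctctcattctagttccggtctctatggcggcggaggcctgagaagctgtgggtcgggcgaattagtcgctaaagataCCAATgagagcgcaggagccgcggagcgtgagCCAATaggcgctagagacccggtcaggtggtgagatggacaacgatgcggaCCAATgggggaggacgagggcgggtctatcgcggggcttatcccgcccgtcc
Zfp36l1 and Ybx1 were the 2 of the 7 genes with CCAAT in this window.

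Sample 3 held 5 extremes of the 8 genes. It was the highest for Pabpc1, Pcbp1 and Pcbp2 and the lowest for Zfp36 and Zfp36l1, both after scaling on the median and in the deposited signals. After quantile normalization it was the highest for Pcbp1 alone of the 3, and still the lowest for both Zfp36 genes, while sample 5 then held 5 extremes. The scaled values of all expressed probe sets were also highest in sample 3 more often than in any other sample, for 30.7% of them, and lowest there for 11.9%. In the deposited signals those shares were 18.9% and 18.0%. The part of the 3' to 5' ratios of sample 3 in these extremes was not tested.

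None of the 8 genes had a second probe set to check its order of samples against. How far such an order can be read was therefore taken from 307 other genes with 2 expressed probe sets whose names mark no shared probes. The 2 probe sets named the same highest sample for 71 genes (23.1%) and the same lowest for 75 (24.4%). The difference between their deviations was taken as the median over the samples in each gene. Its median over the genes was 0.14 on the log2 scale. For brighter probe sets with a range of 0.3 to 0.5, where Zfp36l1, Tia1, Tial1, Pabpc1, Pcbp1 and Ybx1 lie, the highest sample was shared by 20.7% of 135 genes. The highest or lowest sample of a probe set was thus repeated by another of the same gene in a minority of cases. The full order of samples was not compared. Unrelated probe sets share extremes too, since 30.7% of expressed probe sets were highest in sample 3. Extremes shared by or opposite between genes, here and below, are descriptions under this limit.

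**Figure D3:**
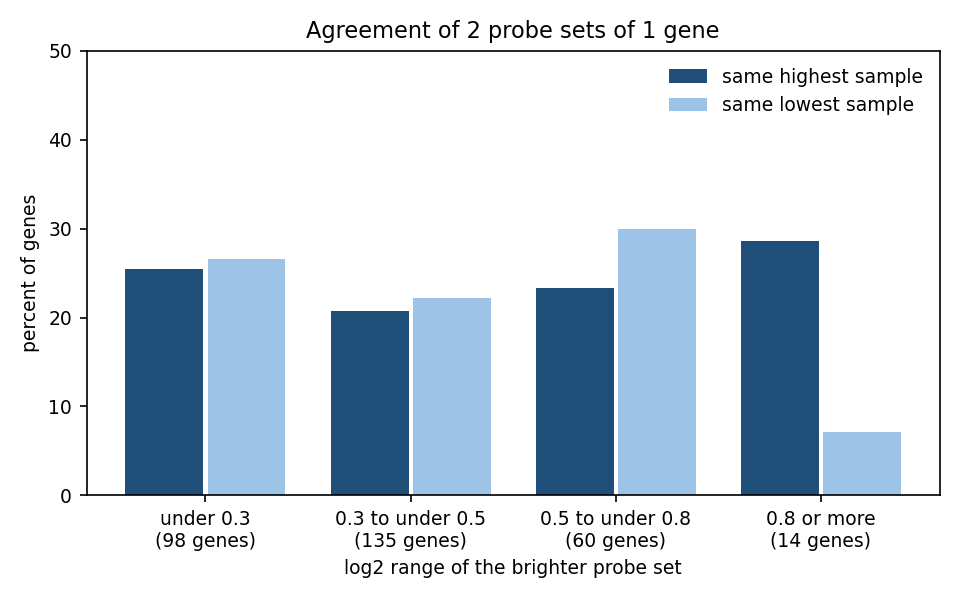
Bars give the percent of genes whose 2 expressed probe sets had the same highest (dark) or lowest (light) of the 6 samples, on the y axis, by the log2 range of the brighter probe set, on the x axis. The number of genes is under each pair of bars. Between 20.7% and 28.6% shared the highest sample in every class, and the widest class has only 14 genes.

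Elavl4 gives the gene of the study beside these values. Elavl4 gave signals of 84.6, 116, 96.2, 65.2, 82.5 and 110.4 in samples 1 to 6, a range of 0.87 (1.83-fold). Its highest sample was the lowest for Pabpc1, and its lowest sample was the highest for Tia1 and Ybx1. None of the 8 genes had both its highest and lowest sample in common with Elavl4 or with Elavl4 turned round.

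Genes with related roles were taken from lists of RNA-binding and decay proteins. Of 125 genes in 7 such lists, 80 were on the array and 64 expressed, and 6 of the 64 (9.38%) reached 1.5-fold, against 23.7% of the 4838 expressed genes. The median range was 0.40 in both sets. Signal level was not matched between them, and of expressed probe sets at least 2 log2 units above the array median 11.5% reached 1.5-fold. Other AU-rich element and 3' end binding proteins counted 15 expressed genes, of which Elavl4 alone reached 1.5-fold by its brightest probe set, against 2 genes after quantile normalization, 3 without scaling and none without sample 4. Elavl1, the widely expressed HuR protein, named after its values were seen, was just under it at 1.49-fold, with sample 4 the highest and sample 1 the lowest, as for Ybx1. The 8 expressed genes of decapping and 5' decay had none at 1.5-fold (the widest was Lsm7, a subunit of the decapping activator ring, at 1.38-fold). Nor had the 6 of the exosome and 3' decay, where the widest was its subunit Exosc8 at 1.45-fold and 1 reached it without scaling.

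In the list of poly(A) binding and translation, 1 of 10 expressed genes reached 1.5-fold (2 after quantile normalization), and it was Pabpc4, the inducible relative of Pabpc1. Pabpc4 had a signal of 88.8, 134, 106, 130.0, 169 and 183 in samples 1 to 6. It ranged 2.05-fold, with sample 6 the highest and sample 1 the lowest, so it shared neither extreme with Pabpc1. In the list of stress granule and cold shock proteins, 2 of 12 reached it, and 1 without sample 3, 4 or 5. These were Ybx3, a relative of Ybx1 (1.72-fold, highest in sample 6 and lowest in sample 4), and Cirbp, the cold-inducible RNA-binding protein (1.60-fold, highest in sample 3 and lowest in sample 5). The lowest sample of Ybx3 was thus the highest sample of Ybx1.

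Among 11 expressed genes of deadenylation, 1 reached 1.5-fold. It was Noct (nocturnin), at 2.63-fold with sample 4 the highest and sample 3 the lowest, from a probe set marked as shared, while its probe set without that mark ranged 1.20-fold. The same held for Ddx6, a helicase of decay named after its values were seen, whose 2 probe sets marked as shared ranged 2.42-fold and 3.08-fold with sample 3 the lowest, against 1.29-fold for the one not so marked. In nonsense-mediated decay 1 of 2 expressed genes reached it, Smg5 (1.99-fold, marked as shared). Another Smg5 probe set, without that mark, ranged 1.56-fold. A mark did not go with the wider range throughout, as seen in Ddx3x and Eif4ebp2, also named after their values were seen. Ddx3x, another helicase, ranged 1.17-fold by its marked and 1.85-fold by its unmarked expressed probe set. Eif4ebp2, a repressor of translation initiation, ranged 1.40-fold and 2.78-fold by 2 unmarked ones, the wider with sample 3 the lowest.

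**Figure D4:**
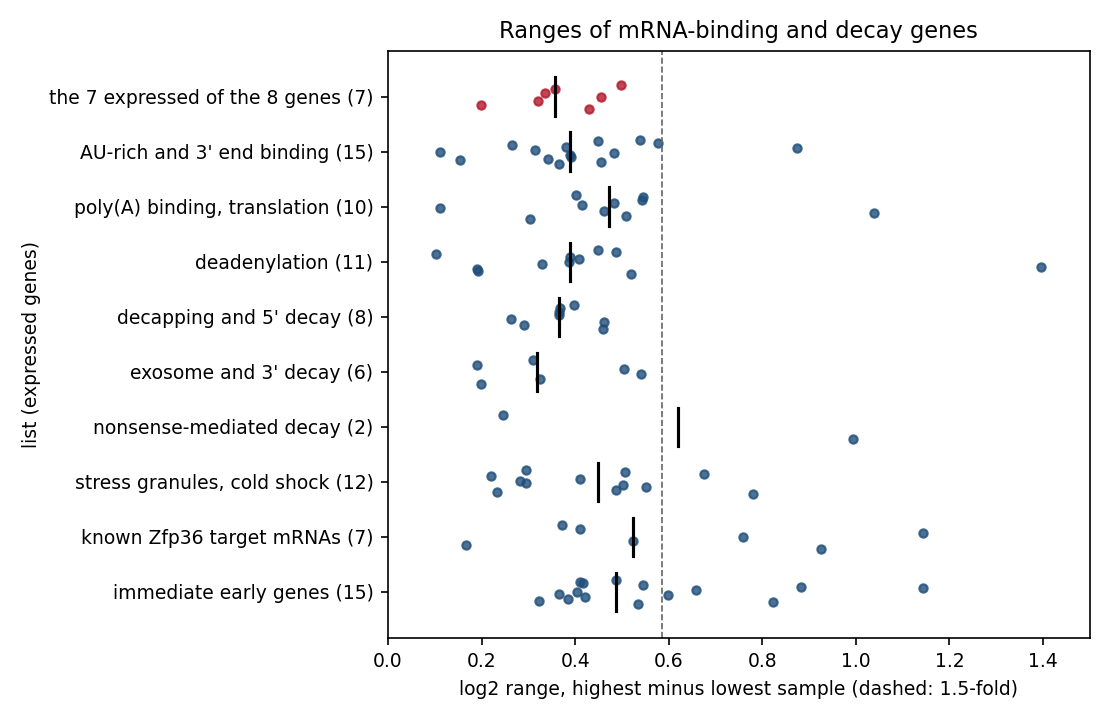
Each point is an expressed gene, with its log2 range over the 6 samples on the x axis, in rows for the 7 expressed genes described here (red) and for 9 lists (blue). Black bars are row medians, and the number of genes is in parentheses. All red points and all of those for decapping and the exosome lie left of the dashed 1.5-fold line, and immediate early genes have 5 points to its right.

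Among 20 mRNAs known as Zfp36 targets, 7 were expressed, and the cytokine mRNAs Tnf, Il1b, Il6 and Csf2 stayed under the median of the array in each sample. Of the 7, 3 reached 1.5-fold (Fos, Vegfa and Ier3), against 23.7% of all expressed genes, and 1 did where all 6 values had to lie above the array median. Fos, a subunit of the AP-1 transcription factor, had a signal of 210.3, 161, 90.8, 142, 208 and 162 in samples 1 to 6. It was highest in sample 1 and lowest in sample 3, the same samples as Zfp36, a range of 2.21-fold. Vegfa, an endothelial growth factor, ranged 1.90-fold with sample 4 the highest and sample 6 the lowest. Ier3, an early response gene, ranged 1.69-fold with sample 2 the highest and sample 4 the lowest, so these targets had no extreme in common with Fos or with Zfp36.

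Immediate early genes, the class to which Zfp36 belongs, had 15 expressed genes, of which 5 reached 1.5-fold (Fos, Egr2, Nr4a2, Fosb and Junb), against the same 23.7%. Each of the 5 was lowest in sample 3, as Zfp36 and Zfp36l1 were. Since 0 reached 1.5-fold without sample 3, the choice at that threshold fixed that sample 3 was an extreme of each. The shared lowest sample of these 5 is thus not separate support for a likeness to Zfp36. Egr2, a zinc finger transcription factor, had a signal of 75.2, 67.7, 38.9, 55.1, 69.8 and 71.8 in samples 1 to 6 (1.85-fold). Nr4a2, a nuclear receptor, had 252, 316, 174, 292, 292 and 221 in samples 1 to 6 (1.77-fold). Fosb, a partner of Jun proteins, ranged 1.58-fold and Junb, from a probe set marked as shared, 1.51-fold. Another expressed Junb probe set, also marked, was lowest in sample 6.

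Over all 15, 7 were highest in sample 1 and 6 lowest in sample 3, where 17.3% of expressed probe sets were highest in sample 1 and 11.9% lowest in sample 3. Not all members of the class did so. Jund, Per1 and Btg2, named like Dusp6 after their values were seen, were highest in sample 3 after scaling, although the deposited Jund signal was highest in sample 2. Without sample 3, 0 of the 15 reached 1.5-fold. In sample 1 Zfp36l1 lay below its median, as 4 of the 15 did (Nr4a2, Btg2, Jund and Dusp6).

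**Figure D5:**
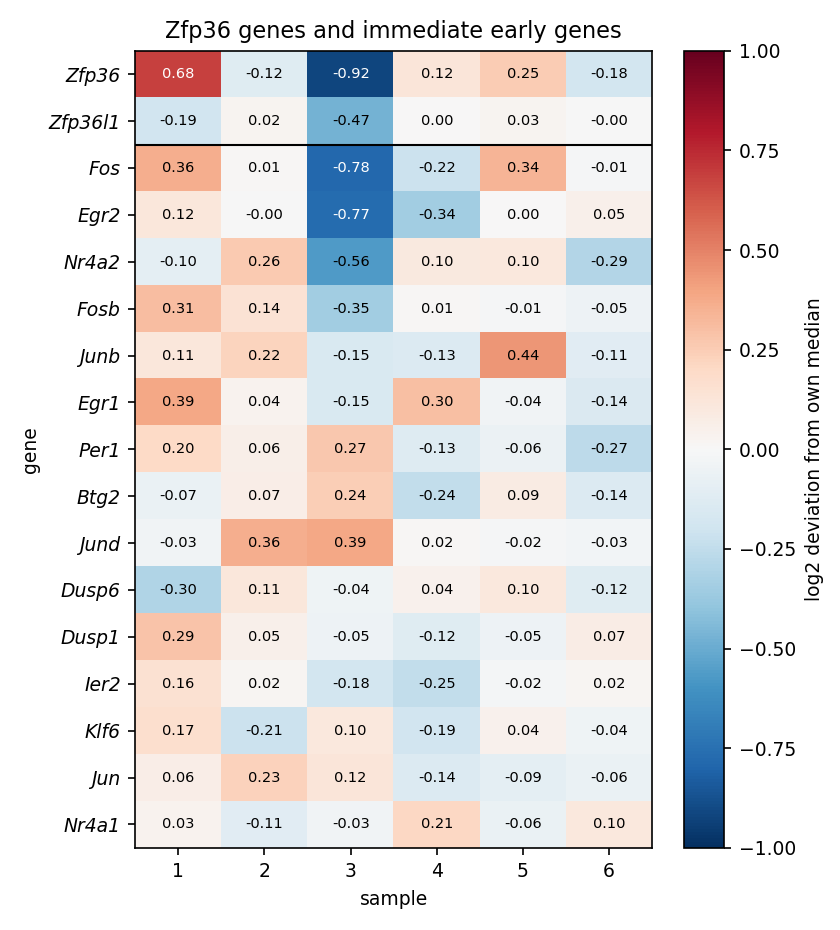
Rows are Zfp36, Zfp36l1 and, under the line, the 15 expressed immediate early genes from widest to narrowest range, and columns are the 6 samples. Colour and number give the log2 deviation from the median of that row (red above, blue below). Sample 3 is blue for Zfp36 (-0.92), Zfp36l1 (-0.47), Fos (-0.78), Egr2 (-0.77) and Nr4a2 (-0.56), and red for Jund (0.39).

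Summed signals of cell type markers were set beside the extremes of Zfp36, and only the endothelial sum shared both. The 7 endothelial markers on the array, of which 2 were expressed, summed to a signal of 594, 484, 395, 428, 460.1 and 589 in samples 1 to 6. This sum was highest in sample 1 and lowest in sample 3, as Zfp36 was, but it was nearly as high in sample 6, where Zfp36 lay below its median. Most markers in the sum were not expressed. Of the 2 that were, Flt1 had both extremes of Zfp36. Cldn5, named after its values were seen, was highest in sample 2 (251, against 247 in sample 1). The 6 mural markers (3 expressed) summed to 302 to 495, with the lowest sum in sample 3, and the 7 meningeal markers (5 expressed) to 1744 to 2340, also with the lowest sum in sample 3. Both of these sums were highest in sample 2. Of the expressed markers, 2 of 2 endothelial, 0 of 3 mural and 1 of 5 meningeal ones were lowest in sample 3. The 8 microglial markers (7 expressed) summed to 1641 to 1842, lowest in sample 1.

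The 5 hippocampal neuron markers on the array (4 expressed) summed to 1503, 2055, 1552, 2271, 2471 and 1878 in samples 1 to 6. This sum was lowest in sample 1, next lowest in sample 3 and highest in sample 5. Zfp36l1 was lowest in sample 3, next lowest in sample 1 and highest in sample 5. The single markers were split. Camk2a, a kinase of excitatory neurons and the widest of these markers, ranged 3.51-fold with sample 5 the highest and sample 3 the lowest. Wfs1 had the same extremes, but Neurod6 and Neurod2 were highest in sample 3, where Zfp36l1 was lowest, and lowest in sample 1. Wfs1, Neurod6 and Neurod2 were named after their values were seen. None of the markers in these lists was at 0, and their part in the values of Zfp36 and Zfp36l1 was not tested.

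The expressed genes most like each of the 3 widest expressed genes were found by the root-mean-square difference of log2 deviations over the 6 samples. Because they were picked over these same samples, an extreme they share is no separate support for a pattern. For Zfp36l1 they were Gsdme, a pore-forming gasdermin (0.05), Zfp106, a zinc finger protein (0.06), and Fam126b (0.06), each lowest in sample 3. For Pabpc1 they were Exoc8, an exocyst subunit (0.04), Anp32e, a histone chaperone (0.04), and Nop53, a ribosome assembly factor (0.05), each lowest in sample 2. For Ybx1 they were Hspb8, a small heat shock protein (0.04), Tmem179b (0.04) and Klf13, a transcription factor (0.05), each highest in sample 4.

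These neighbours were not stable, since 24 of 27 repeats with another setting or without a sample lost at least 1 of the 3. Without sample 3 none of the 3 was kept for Zfp36l1 or for Ybx1, and 1 was for Pabpc1. For Zfp36, added after its values were seen, the nearest expressed genes were farther off: Hand1, a transcription factor (0.14), Chl1, a cell adhesion protein (0.17), and Larp7, a binder of 7SK RNA (0.21). All of these were highest in sample 1 and lowest in sample 3, as Zfp36 was, and each was above the array median in all 6 samples. They were picked for likeness to Zfp36 over these same samples, so their shared extremes are no separate support for its pattern.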

How the data were processed

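Total RNA of 6 mouse hippocampus samples was measured on 6 arrays. The authors deposited linear signal intensities, a value for each probe set and array, and the values themselves show no centring of genes. The sources used here do not state the scanner, the summary method, the scaling or the build of the array design. No detection calls were used, so the number of arrays limits the precision and the error of a single value is unknown. The labels put no sample in a group, so no mean, SD or test was computed. The 8 genes and all lists were chosen with earlier results of these data known.

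Names came from the platform annotation, in which 10833 probe sets had 1 symbol, 396 had several and 1193 none, and only the first kind was named. Gene identifiers matched the RefSeq table (GRCm38.p6) for 10817 of them. Signals were divided by the array's median (12422 probe sets, controls left out), raised to a floor of 0.2 where lower, and turned into log2 values. In the lists the probe set of highest mean stood for its gene. Named in the text were the 8 genes, Elavl4, of each list the widest expressed gene and those at 1.5-fold or more (at most the 6 widest), the 3 nearest genes of the 3 widest expressed genes, and the controls. Other genes are marked where named. Alternatives were quantile normalization, no scaling, other expression filters, a floor at the array median, probe sets with shared probes left out, a probe set per gene, another measure of likeness, and each sample left out. The calculations used Python 3.11.15, numpy 2.4.6 and pandas 2.3.3, and were tested on simulated data.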

Additional observations from a re-analysis of the deposited data

How the results depend on the processing

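With no filter on expression, the count of the 8 genes at 1.5-fold or more was 1 instead of 0, and the added gene was Zfp36. In the other 12 of 13 alternatives that count was 0, without any single sample too, and the median range lay between 0.32 and 0.39 in all 13. Of 72 recomputed ranges of single genes, 60 moved by less than 0.1 on the log2 scale. The lowest sample of each gene was kept in 16 of 16 repeats with another scaling and the highest in 14, the exceptions being Pabpc1 and Pcbp2 under quantile normalization. Counts over the lists were within 1.5 times in 72 of 90 repeats. The largest changes were 10 in place of 3 for Zfp36 targets with no expression filter, which adds signals under the array median, and 0 in place of 5 for immediate early genes without sample 3. No paired analysis was possible because the labels give no groups.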
